A study of Mus musculus with 6 samples.

Results

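Genes of the BMP, Nodal and TGF-beta pathways were followed in heads of E8.5 mouse embryos that lacked the histone demethylase Jarid1b. The list held 45 genes, taken by name, and each was paired with exactly 1 probe set among the 21789 tested probe sets of 19938 genes. The readout was the Affymetrix mouse Gene 1.0 ST array, which reads a gene through probes spread along its transcript. Each sample was a pool of 4 heads from C57BL/6 embryos, with 3 pools of Jarid1b heterozygotes (het) and 3 pools of Jarid1b knockouts (KO), and nothing was given as a treatment. The deletion was constitutive: Cmv-cre had removed an exon flanked by loxP sites, and heterozygous parents were intercrossed. The heterozygotes, which keep 1 intact allele, were the only controls, and no wild-type pool was analysed here.

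BMPs, Nodal, activins and TGF-betas are secreted ligands that bind pairs of type I and type II receptor kinases. BMP receptors phosphorylate Smad1, Smad5 and Smad9, whereas Nodal, activin and TGF-beta receptors phosphorylate Smad2 and Smad3, and both kinds of Smad enter the nucleus with the shared Smad4. In the early head, BMPs from the surface ectoderm and the dorsal midline pattern the neural plate and the neural crest, while Nodal acts earlier in the prechordal midline and on the left side of the body. The Id genes are immediate targets of BMP signalling, and Lefty proteins are feedback inhibitors of Nodal.

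The targeted gene was checked first. Jarid1b, listed as Kdm5b, had log2 intensities of 9.17, 9.12 and 9.16 in the het pools and 7.63, 7.47 and 7.71 in the KO pools. It was lower in every KO pool, by 2.92-fold (log2 fold change -1.55, standard error 0.07, limma adjusted p = 0.000629), and the position of its probes on the gene was not checked. Of the 8 neural ectoderm markers, none was in the dimmest tercile of probe sets (ranked by mean intensity), and Otx2 was at 9.85 or above in all 6 pools. All 7 heart markers were in the brightest tercile too, with Myl7 between 12.03 and 12.25. KO replicate 2 stood apart in the summed intensity of the 6 measured primitive blood markers, at 1816 against 238 to 480 in the other pools. The globin genes Hba-x, Hbb-bh1 and Hbb-y, at log2 intensities of 10.09, 8.87 and 6.79, were highest there, as was Gata1 at 5.63. Klf1 was highest in KO replicate 3 (5.29) and Alas2 in het replicate 1 (6.35). KO replicate 3 stood apart in visceral endoderm markers, at a summed intensity of 3377 against 6544 to 7696 elsewhere. The mean log2 intensity of 3 Y-linked genes was low in het replicate 1 (6.24) and het replicate 3 (6.16), and lay from 7.52 to 7.97 elsewhere. Both low pools were het, so this signal was not balanced between the genotypes.

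No member changed at an adjusted p under 0.05 in limma, where 0.00459% of all tested probe sets did, and the smallest adjusted p among the members was 0.391. At an unadjusted p under 0.05, 3 members were lower in the KO pools, namely Bmp5, Bmp7 and Tgfb2, against a background of 4.66% of all probe sets. Only Gdf3 was higher at that threshold, against a background of 5.97%. The counts are 6.67% and 2.22% of the members, the first close to its background and the second below it. The count of lower members was 6 without KO replicate 2 and 1 without het replicate 1 or het replicate 3. Groups that did not overlap were seen for 5 lower members (Bmp4, Bmp5, Bmp7, Gdf11 and Tgfb2), which is 11.1% against a background of 9.03%. They were seen for 1 higher member (Gdf3), which is 2.22% against a background of 8.03%. The background differed between terciles. In the brightest tercile 4 members were lower without overlap, or 18.2% of the members there, against 16.8% of all probe sets there. Gdf3 was in the dimmest tercile, where 874 of all 7263 probe sets were higher without overlap. With 3 pools against 3, an exact permutation test of 1 gene cannot give a p below 0.1.

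The means of no member were over 1.5-fold apart, where 0.0734% of all probe sets passed that size. The arrays also bounded changes in the mean signal of pooled heads, but not changes confined to some of the cells. For 44 of the 45 members the 95% confidence interval of the fold change lay inside 1.5-fold in either direction, and Lefty2 was the exception. The same was found for 98.2% of all tested probe sets. Of the members, 5 were in the dimmest tercile, and whether their signal lay above background was not checked. Members had a median standard error of 0.065 on the log2 scale, against 0.071 over the array.

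**Figure D1:**
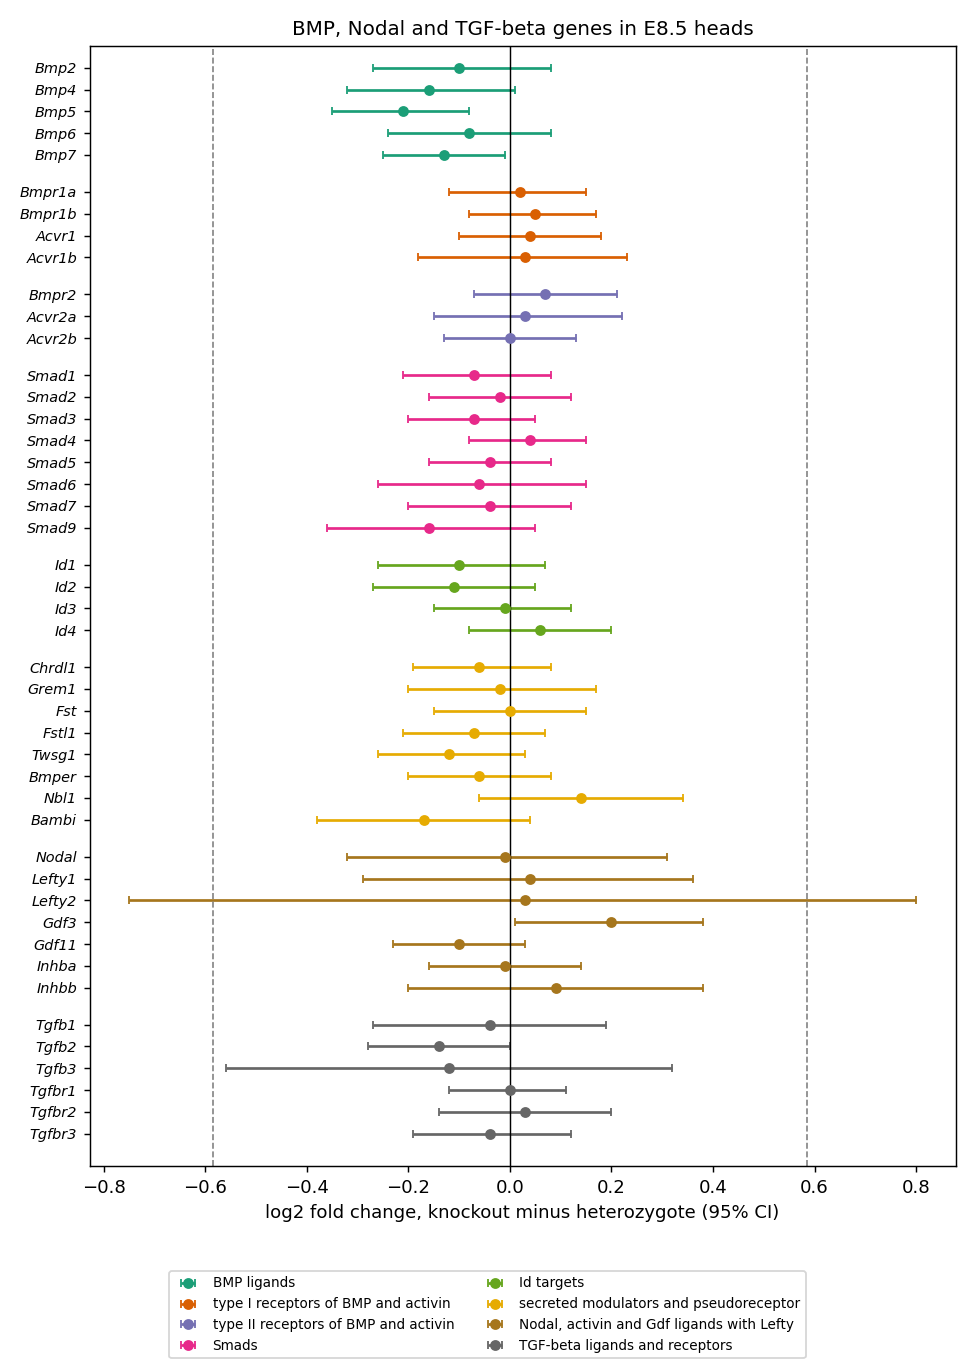
Log2 fold change, KO minus het, with its 95% confidence interval for each of the 45 genes, coloured by role, with dashed lines at 1.5-fold. All 5 BMP ligands lie below 0, between -0.21 and -0.08, and only the interval of Lefty2, from -0.75 to 0.80, crosses the dashed lines.

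The BMP ligands were the only role in which every gene had a negative log2 fold change. Of the 5, 3 were in the brightest tercile, where 70.2% of all probe sets were negative and 16.8% were lower without overlap. The other 2 were in the middle tercile, where these shares were 50.2% and 8.22%. Bmp5, a ligand of the dorsal midline, had log2 intensities of 8.90, 8.88 and 8.87 in the het pools and 8.73, 8.70 and 8.57 in the KO pools. The groups did not overlap, and KO replicate 3 was lowest. Bmp5 was thus 1.16-fold lower, at a log2 fold change of -0.21 (95% confidence interval -0.35 to -0.08, limma adjusted p = 0.391). Bmp5 was the single member with an unadjusted p under 0.05 in all 16 alternative analyses, where its log2 fold change ranged from -0.24 to -0.17 and its adjusted p from 0.249 to 0.617.

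Bmp7, expressed widely in the early head, measured 8.82, 8.83 and 8.77 in the het pools and 8.72, 8.67 and 8.65 in the KO pools on the log2 scale. Every KO pool was below every het pool, and the spread within a group was 0.03 (SD) on either side. Its log2 fold change was -0.13 (standard error 0.05, limma adjusted p = 0.452), and it passed the unadjusted threshold in 7 of the 16 alternatives. When single pools were left out it passed without KO replicate 1 (-0.15) and missed without each of the other 5 pools (-0.15 to -0.11).

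Bmp4, which induces surface ectoderm and dorsal neural fates, measured 8.49, 8.45 and 8.63 in the het pools and 8.28, 8.44 and 8.38 in the KO pools. The groups did not overlap, but het replicate 2 and KO replicate 2 were separated by only a small step. The log2 fold change was -0.16 (95% confidence interval -0.32 to 0.01, limma adjusted p = 0.485). It was -0.19 without het replicate 2 or KO replicate 2, with an unadjusted p under 0.05 in both cases, and -0.10 without het replicate 3. Bmp2, the closest paralog of Bmp4, measured 7.34, 7.44 and 7.47 in the het pools and 7.18, 7.39 and 7.37 in the KO pools, so that its groups overlapped. Bmp6 overlapped too, with 6.29, 6.40 and 6.30 in the het pools and 6.18, 6.36 and 6.21 in the KO pools. Their log2 fold changes were -0.10 and -0.08, with intervals that reached 0.08 above 0 for both.

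**Figure D2:**
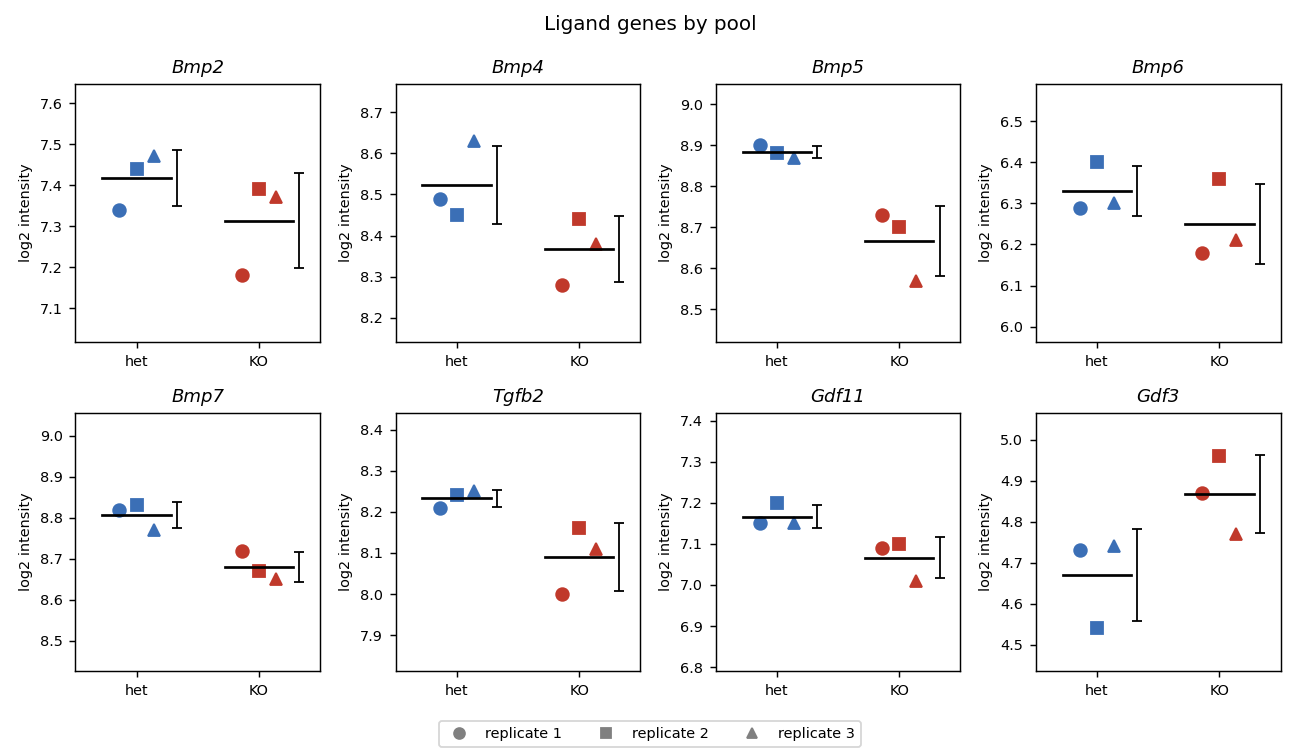
Log2 intensity of 8 ligand genes in each pool, het in blue and KO in red, with symbols for the replicates, black lines for the group means (n = 3) and bars reaching 1 SD above and below. Bmp4, Bmp5, Bmp7, Tgfb2 and Gdf11 are lower in every KO pool than in any het pool, Gdf3 is higher in every KO pool, and Bmp2 and Bmp6 overlap.

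The negative sign of all 5 BMP ligands held in each of the 16 alternatives. The size depended on the scaling between arrays, since the median log2 fold change of the 5 was -0.13 as deposited, -0.085 after quantile normalization and -0.093 after cyclic loess normalization. After either step only Bmp5 kept an unadjusted p under 0.05. BMP ligands are expressed in the surface ectoderm, but not only there. Of the other marker lists, negative log2 fold changes were seen for 3 of 8 neural ectoderm, 1 of 5 neural crest and 4 of 6 head mesenchyme genes. They were seen for 3 of 7 heart, 5 of 6 endothelium, 8 of 8 visceral endoderm, 4 of 6 foregut and 0 of 6 blood genes. In these lists Six3 and Tbx5 were lower at an unadjusted p under 0.05, and Sox1, Tfap2b and Klf1 were higher. Of the 7 measured surface ectoderm markers 6 had a negative log2 fold change, and 5 of the 7 were in the brightest tercile, where 70.2% of all probe sets were negative. The general epithelial genes Cdh1, Krt18 and Esrp1, at -0.22, -0.20 and -0.21, had an unadjusted p under 0.05, against 4.66% of all probe sets and 6.71% of the brightest tercile. Krt8 and Epcam were at -0.12 and -0.05, and the more specific surface ectoderm genes Trp63 and Grhl3 were at -0.08 and 0.05, all 4 with overlapping groups. The summed intensity of the list was between 6717 and 6964 in the het pools and between 5728 and 6357 in the KO pools, but Krt8 and Krt18 made up 74.5% to 76.7% of it in each pool. Its lowest pool was KO replicate 3, which was also low in markers of the visceral endoderm, another epithelium with these keratins. The part of either tissue in the values of the BMP ligands was not tested, and in pooled tissue fewer cells of a type and less RNA per cell cannot be told apart.

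For 4 of the 5 members that were lower without overlap, RefSeq promoter windows of the assembly GRCm38.p6 were at hand. They are shown because H3K4me3, the mark that Jarid1b removes, lies at promoters and above all at those rich in CpG. The 250 bases before the annotated start are given 5′ to 3′ on the strand of the gene, with each CpG in capitals. The windows lie at chr9:75775115-75775364 (plus strand) for Bmp5, chr14:46390670-46390919 (minus strand) for Bmp4, chr1:186705990-186706239 (minus strand) for Tgfb2 and chr10:128891719-128891968 (minus strand) for Gdf11.
Bmp5: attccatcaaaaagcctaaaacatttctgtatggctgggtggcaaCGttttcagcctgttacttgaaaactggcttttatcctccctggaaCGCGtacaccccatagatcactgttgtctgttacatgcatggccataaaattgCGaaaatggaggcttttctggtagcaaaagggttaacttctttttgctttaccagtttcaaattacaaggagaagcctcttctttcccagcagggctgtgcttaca
Bmp4: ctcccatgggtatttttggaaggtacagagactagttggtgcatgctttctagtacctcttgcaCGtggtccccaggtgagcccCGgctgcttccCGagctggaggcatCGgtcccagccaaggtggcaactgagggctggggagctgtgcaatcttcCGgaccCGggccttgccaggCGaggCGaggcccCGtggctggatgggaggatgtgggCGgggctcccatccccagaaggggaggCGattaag
Tgfb2: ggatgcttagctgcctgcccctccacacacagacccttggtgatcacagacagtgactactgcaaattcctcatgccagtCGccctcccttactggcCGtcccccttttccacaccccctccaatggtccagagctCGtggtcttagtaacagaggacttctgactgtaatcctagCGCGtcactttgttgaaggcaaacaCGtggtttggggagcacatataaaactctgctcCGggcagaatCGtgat
Gdf11: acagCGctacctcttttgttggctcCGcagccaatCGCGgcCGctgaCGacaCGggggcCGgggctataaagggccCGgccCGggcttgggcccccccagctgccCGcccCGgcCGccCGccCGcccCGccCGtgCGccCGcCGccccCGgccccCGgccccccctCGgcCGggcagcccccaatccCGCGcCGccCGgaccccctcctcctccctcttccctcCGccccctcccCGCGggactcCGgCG
Bmp5 had 4 CpG in this window, Tgfb2 8, Bmp4 11 and Gdf11 33. Windows of 31 members were available, 36 in all, and held a median of 22 CpG, with a range from 1 to 49. Over all 32851 windows the median was 6. Of these 4 lower ligands, Bmp5, Tgfb2 and Bmp4 thus lay below the median of the members in CpG, and Gdf11 lay above it. Against the median of all windows, Tgfb2, Bmp4 and Gdf11 lay above it and only Bmp5 below. The palindromic Smad-binding element GTCTAGAC, which reads the same on both strands, was in none of the 36 windows and in 0.167% of all windows. At so low a share, its absence from 36 windows tells nothing about the members. The GC-rich element GGCGCC, bound by BMP Smads in other promoters, was in 9 of the 36, or 25%, and in 9.59% of all windows, and it was in none of the 4 shown. GGCGCC itself holds a CpG, so it is found more often where CpG is frequent.

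Receptors differed little between genotypes. The type I receptors Bmpr1a, Bmpr1b, Acvr1 and Acvr1b had log2 fold changes from 0.02 to 0.05, and the type II receptors Bmpr2, Acvr2a and Acvr2b from -0.0028 to 0.07. All 7 confidence intervals lay between -0.18 and 0.23. Bmpr1a, the main BMP receptor of the early embryo, measured 9.29, 9.36 and 9.21 in the het pools and 9.32, 9.29 and 9.31 in the KO pools, and the KO values lay within the het range. Bmpr1b measured 5.58, 5.63 and 5.63 against 5.71, 5.63 and 5.64. Bmpr2, a type II receptor of BMPs, measured 8.61, 8.60 and 8.49 against 8.65, 8.69 and 8.58, at 0.07 (limma adjusted p = 0.703). Acvr2b, a receptor of activin and Nodal, measured 8.80, 8.92 and 8.86 against 8.84, 8.88 and 8.84. In each of these genes the groups overlapped. The directions are not firm at this size, and Acvr2b turned to 0.044 after quantile normalization and Bmpr1b to -0.0011.

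Of the 8 Smads, 7 had a negative log2 fold change, none passed an unadjusted p under 0.05 and none had groups that did not overlap. After quantile or cyclic loess normalization 5 of the 8 were negative. The value furthest from 0 was -0.16 for Smad9, a BMP Smad, with log2 intensities of 6.79, 6.69 and 6.56 in the het pools and 6.42, 6.67 and 6.47 in the KO pools. Its groups overlapped, and its 95% confidence interval ran from -0.36 to 0.05. Without KO replicate 2 it was at -0.23 with an unadjusted p under 0.05, and without KO replicate 1 at -0.10. Smad4, the shared partner, measured 9.36, 9.40 and 9.40 against 9.43, 9.45 and 9.39, at 0.04 on the log2 scale (standard error 0.05). The other BMP Smads, Smad1 and Smad5, were at -0.07 and -0.04, and the Nodal and activin Smads, Smad2 and Smad3, at -0.02 and -0.07. The inhibitory Smads, Smad6 and Smad7, which BMP and TGF-beta signalling induce as feedback, were at -0.06 and -0.04. For 5 of the 8 Smads the lowest of all pools was KO replicate 3, which was lowest in 4483 of all 21789 tested probe sets.

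The Id genes encode inhibitors of bHLH factors. None passed an unadjusted p under 0.05, and their log2 fold changes ran from -0.11 to 0.06. Id2 measured 10.39, 10.46 and 10.44 in the het pools and 10.19, 10.40 and 10.38 in the KO pools. Id1 ran from 9.80 to 10.02 over the 6 pools, at a log2 fold change of -0.10. In both genes KO replicate 1 was the lowest pool and the groups overlapped. Id2 was at -0.11, and at -0.043 without KO replicate 1. Without KO replicate 2, Id1 was lower at an unadjusted p under 0.05. Id4 measured 6.66, 6.68 and 6.75 against 6.76, 6.67 and 6.82, and Id3 was at -0.01 (interval -0.15 to 0.12).

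Among the secreted modulators and the pseudoreceptor Bambi, 6 of 8 had a negative log2 fold change and none an unadjusted p under 0.05. Bambi, a membrane decoy that BMP signalling induces, was lowest of the 8, with 8.03, 8.05 and 8.18 in the het pools and 7.73, 7.97 and 8.05 in the KO pools. KO replicate 1 was low and KO replicate 3 lay within the het range. The log2 fold change was -0.17 (95% confidence interval -0.38 to 0.04, limma adjusted p = 0.542). It was -0.077 without KO replicate 1. The unadjusted p was under 0.05 without KO replicate 3, at -0.24, and in the fit blocked on replicate number, at -0.17. Nbl1, a secreted BMP antagonist, was the highest at 0.14, with 5.44, 5.55 and 5.22 against 5.57, 5.56 and 5.50, and het replicate 3 was its low pool. Without that pool Nbl1 was at 0.049, without het replicate 2 at 0.21 with an unadjusted p under 0.05, and with the Y-linked covariate at 0.031. Twsg1, a cofactor of chordin, was at -0.12. Fst, which binds activin, was at 0.00073 (interval -0.15 to 0.15), and Chrdl1, Grem1, Fstl1 and Bmper lay between -0.07 and -0.02.

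In the group of Nodal, the Lefty genes, activin subunits and Gdf ligands, 2 of 7 genes had groups that did not overlap, 1 lower and 1 higher, or 14.3% each against 9.03% and 8.03% of all probe sets. Gdf3, a Nodal-like ligand of the early embryo, measured 4.73, 4.54 and 4.74 in the het pools and 4.87, 4.96 and 4.77 in the KO pools. The gap between het replicate 3 and KO replicate 3 was small. Its log2 fold change was 0.20, or 1.15-fold higher, (95% confidence interval 0.01 to 0.38, limma adjusted p = 0.446). The unadjusted p missed 0.05 without het replicate 2 (0.13), KO replicate 1 (0.20) or KO replicate 2 (0.15), the log2 fold changes then being those in parentheses. Gdf3 was in the dimmest tercile of probe sets, in which the median log2 fold change of all genes was 0.056. In that tercile 874 of all 7263 probe sets were higher without overlap. Gdf11, an activin-like ligand that patterns the trunk, measured 7.15, 7.20 and 7.15 against 7.09, 7.10 and 7.01, a log2 fold change of -0.10 (limma adjusted p = 0.545). Inhba and Inhbb, the activin beta subunits, were at -0.01 and 0.09, both in the dimmest tercile. Without KO replicate 1, Inhbb was higher at an unadjusted p under 0.05.

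Nodal and its inhibitors varied between pools of the same genotype more than between genotypes. Nodal measured 5.61, 6.03 and 5.93 in the het pools and 6.09, 5.68 and 5.78 in the KO pools. Lefty1 measured 4.87, 5.35 and 5.18 against 5.38, 4.97 and 5.15, and Lefty2 measured 6.98, 7.95 and 7.17 against 7.54, 6.73 and 7.91. In all 3 genes the 2 lowest pools were het replicate 1 and KO replicate 2, and either het replicate 2 or KO replicate 1 was the highest. This pattern was picked out after the values were seen. The same pair of lowest pools was found in 5.55% of all probe sets and in 6 of the 45 members, the others being Bmpr1b, Id4 and Inhba. Lefty2 had the largest spread of the members, with an SD of 0.51 in the het and 0.61 in the KO pools, and its standard error of 0.33 exceeded that of 99.9% of all probe sets. For Lefty1 and Nodal the standard errors were at the percentiles 96.1 and 95.3. Their log2 fold changes were 0.03 for Lefty2, 0.04 for Lefty1 and -0.01 for Nodal. Lefty1 and Lefty2 are close paralogs, and whether their probe sets share signal was not checked.

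**Figure D3:**
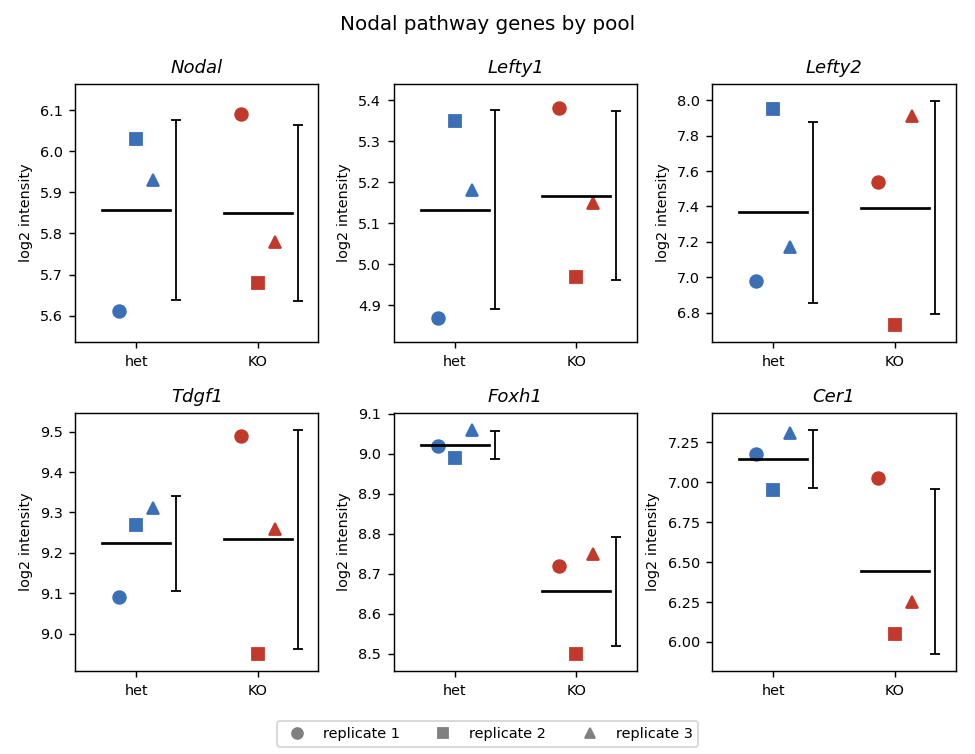
Log2 intensity of Nodal, Lefty1 and Lefty2, and of the Nodal coreceptor Tdgf1, the Nodal effector Foxh1 and the antagonist Cer1, in each pool, drawn as in the plot of the ligand genes. Nodal, Lefty1, Lefty2 and Tdgf1 are lowest in het replicate 1 and KO replicate 2, while Foxh1 is lower in every KO pool (8.5 to 8.75) than in any het pool (8.99 to 9.06).

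Of the TGF-beta ligands and receptors, the ligand Tgfb2 measured 8.21, 8.24 and 8.25 in the het pools and 8.0, 8.16 and 8.11 in the KO pools. The groups did not overlap, and KO replicate 1 was lowest. The log2 fold change was -0.14, or 1.10-fold lower (standard error 0.06, limma adjusted p = 0.462), and the unadjusted p passed in 4 of the 16 alternatives. When single pools were left out it passed without KO replicate 2 (-0.18) and missed without each of the other 5 (-0.15 to -0.097). Tgfb1 was at -0.04 (standard error 0.10). Tgfb3 measured 5.29, 5.12 and 5.17 against 4.75, 5.57 and 4.90, so that KO replicate 2 was the highest and KO replicate 1 the lowest of all pools. Without KO replicate 2, Tgfb3 was lower at an unadjusted p under 0.05. Tgfbr1, the type I receptor, lay between 9.37 and 9.43 in all pools. Tgfbr2 measured 6.47, 6.47 and 6.46 in the het pools and 6.63, 6.48 and 6.38 in the KO pools, and the coreceptor Tgfbr3 was at -0.04.

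A further list of 66 genes of these pathways was drawn up by role, and 60 were measured. None passed an adjusted p under 0.05 in limma, 3 were lower at an unadjusted p under 0.05 (5.0%, against 4.66% of all probe sets) and 5 were higher (8.33%, against 5.97%). Groups did not overlap for 3 lower genes (5.0%, against 9.03%) and 7 higher genes (11.7%, against 8.03%), with Gdf7 and Ltbp4 among the higher. The median log2 fold change of the 60 genes was 0.008, against -0.001 over all probe sets. Foxh1, the DNA-binding partner of the Smads downstream of Nodal, measured 9.02, 8.99 and 9.06 in the het pools and 8.72, 8.5 and 8.75 in the KO pools. The groups were separated by more than their spread, with SDs of 0.04 and 0.14. Its log2 fold change was -0.36, or 1.29-fold lower, (95% confidence interval -0.54 to -0.19, limma adjusted p = 0.356). The unadjusted p stayed under 0.05 in all 16 alternatives, at log2 fold changes from -0.41 to -0.28 and adjusted p-values from 0.18 to 0.617. Cer1, a secreted inhibitor of Nodal and BMP, had the lowest value of the list at -0.70, or 1.63-fold lower (95% confidence interval -1.25 to -0.16, limma adjusted p = 0.413). It was 1 of the 3 genes lower at an unadjusted p under 0.05. It was also the only gene of the list past 1.5-fold, a size that 0.0734% of all probe sets passed. Its pools overlapped, with 7.18, 6.95 and 7.31 against 7.03, 6.05 and 6.25. Over the 16 alternatives its log2 fold change ranged from -1.0 to -0.5, and the unadjusted p was under 0.05 in 12 of them. The classical BMP antagonists Chrd and Nog were at 0.05 and 0.04.

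Gdf2, a ligand of endothelial receptors, was at -0.22, with 5.28, 5.34 and 5.37 in the het pools and 5.08, 5.22 and 5.04 in the KO pools. Sostdc1, an antagonist of BMP and Wnt, was the highest of the list at 0.34, with 5.10, 4.94 and 4.98 against 5.34, 5.43 and 5.28 (limma adjusted p = 0.356). Gdf5, a ligand of joint development, was at 0.27, with 4.67, 4.78 and 4.79 against 4.97, 5.05 and 5.03. In these 3 genes the groups did not overlap. Tll2, a protease related to Bmp1, was at 0.20, with 4.87, 4.8 and 4.74 against 4.90, 5.09 and 5.01. Chrdl2, a relative of chordin, was at 0.18, with 4.87, 4.91 and 4.88 against 5.01, 5.03 and 5.14. Acvrl1, an endothelial type I receptor, was at 0.18 too, with 6.07, 6.23 and 6.29 against 6.31, 6.38 and 6.43. Each of these was higher in every KO pool. Of these 6 genes all but Acvrl1 were in the dimmest tercile of probe sets. There, 761 of all 7263 probe sets were higher at an unadjusted p under 0.05 and 874 were higher without overlap. In the direction of Gdf2, 114 were lower at that threshold and 149 without overlap. Of the 7 other target genes of these pathways, 4 had a negative and 3 a positive log2 fold change. Msx1, Msx2, Dlx5 and Tfap2a, all in the brightest tercile, were at -0.09, -0.11, -0.14 and -0.14, and Gata2, Eomes and Tgfbi were at 0.05, 0.04 and 0.03. None of the 7 had an unadjusted p under 0.05, and among them only the groups of Tfap2a did not overlap. That is 14.3% of the 7, where 16.8% of all probe sets of the brightest tercile were lower without overlap.

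Direction went with intensity over the whole array. Among all tested probe sets, 50.3% had a negative log2 fold change, but this share was 30.4% in the dimmest tercile and 70.2% in the brightest tercile, where the medians were 0.056 and -0.035. The members had 30 negative values of 45, or 66.7%, and a median of -0.036. Of them 22 were in the brightest tercile, 18 in the middle and 5 in the dimmest. Within the brightest tercile 17 of 22 members were negative, or 77.3%, at a median of -0.062. After quantile and cyclic loess normalization, 25 of 45 members were negative, or 55.6%, against 49.6% and 50.2% of all probe sets. The part of the intensity trend in the members' values was not tested.

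**Figure D4:**
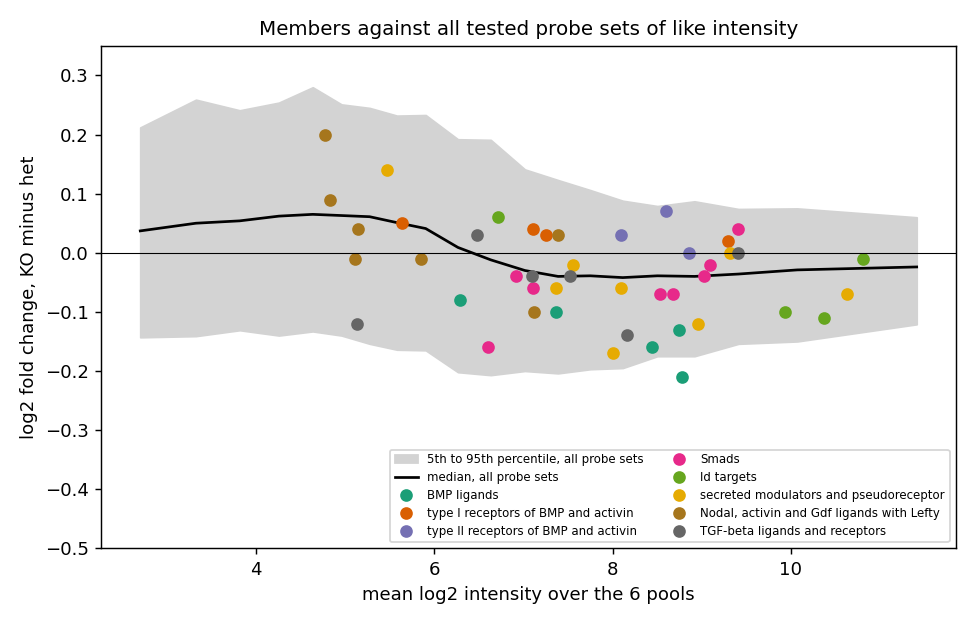
Log2 fold change of the 45 members, coloured by role, against mean log2 intensity, over the median (black line) and the 5th to 95th percentile (gray) of all tested probe sets in 20 bins of equal size. The black line has its highest value, 0.065, among dim probe sets and its lowest, -0.042, among bright ones, and Bmp5 lies below the gray band.

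The pools differed in which roles were low. KO replicate 1 was the lowest of the 6 pools for 16 of the 45 members and KO replicate 3 for 15, against 2 for KO replicate 2. Over all tested probe sets these pools were lowest in 3891, 4483 and 3436 of 21789. In KO replicate 1 the BMP ligands had a median deviation of -0.109 from their mean over the 6 pools, the Id genes -0.073 and the TGF-beta genes -0.082, while the Nodal group was at 0.102. In KO replicate 3, which was low in visceral endoderm markers, the Smads were at -0.094 and the BMP ligands at -0.083. In KO replicate 2, which was high in globin genes of the blood list, the BMP ligands were at -0.003. The part of those tissues in these values was not tested. Het replicate 2 was the highest pool for 12 of the 45 members, and for 3988 of the 21789 tested probe sets. The deviations of single roles rest on 3 to 8 genes each.

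**Figure D5:**
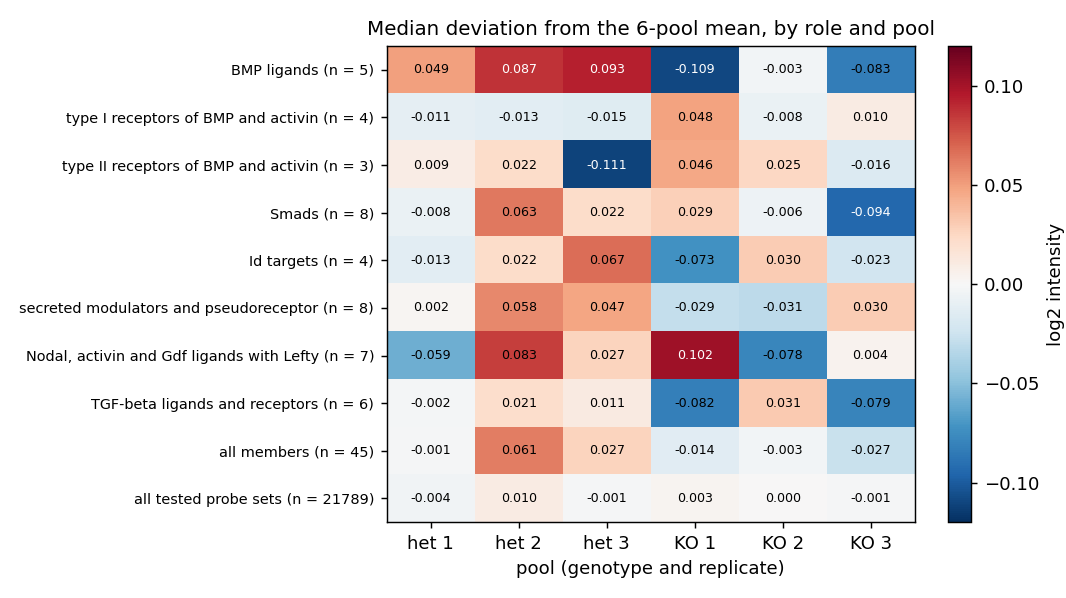
Median deviation of log2 intensity from the mean of the 6 pools, for each role (rows, with the number of genes) and pool (columns), with the value printed in each cell. The BMP ligands are positive in the 3 het pools (0.049 to 0.093) and lowest in KO replicates 1 and 3, and the row of all tested probe sets stays between -0.004 and 0.010.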

How the data were processed

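RNA from 6 pools of E8.5 heads was measured. The deposited intensity values came from RMA, run by the authors with Affymetrix Power Tools according to the submitters' notes, which state no version. The values are on a linear scale, from 2.53 to 11741, and array medians lay between 58.1 and 62.9, and log2 was taken. The number of arrays limits the precision. Of 35556 rows, the 21789 paired with 1 gene symbol by the platform annotation were tested, 1621 with several and 12146 with none were not. RefSeq matched 21698 by gene number. KO and het pools, as labelled, were compared by lmFit and eBayes of limma 3.58.1 (R 4.3.3) without covariates, with Benjamini-Hochberg adjustment across the tested probe sets. The code was tested on simulated data. P-values reflect only how much these pools vary. The members and lists were chosen with earlier results of these data known. Values by pool are given for members with an unadjusted p under 0.05 or without overlap and for the extremes of each role. Bmp2, Tgfb3, Nodal and the Lefty genes were added after their values were seen. The 16 alternatives changed the filter, rows, normalization, variance model, weights, covariates or samples.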

Additional observations from a re-analysis of the deposited data

How the results depend on the processing

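Jarid1b stayed at an adjusted p under 0.05 and no member reached it in any of the 16 alternatives. The members lower at an unadjusted p under 0.05 numbered 1 after quantile or cyclic loess normalization and between 1 and 6 when single pools were left out. The members higher numbered 0 without the dimmest tercile of probe sets, with all rows, after quantile or cyclic loess normalization, with limma trend and robust and with the replicate block, and 0 or 1 when single pools were left out. The median log2 fold change of the members was -0.007 after quantile normalization, -0.068 with the Y-linked covariate and between -0.074 and -0.023 when single pools were left out. With the Y-linked covariate Bmp5, Gdf3 and Tgfb1 had an unadjusted p under 0.05. Bmp7 and Tgfb2, both at -0.15, and Bmp4, at -0.11, did not. Among the members whose values are given under every alternative, signs turned in 4 receptors near 0. Acvr2b was at 0.044 after quantile and 0.039 after cyclic loess normalization and at 0.0015 with array weights, and between -0.035 and 0.03 when single pools were left out, Bmpr1b was at -0.0011 after quantile normalization, Bmpr1a was at -0.03 with the Y-linked covariate and between -0.02 and 0.053 when single pools were left out, and Tgfbr2 was between -0.035 and 0.094 when single pools were left out. The cause was not tested. With the replicate number as a block, 2 members were lower and 0 higher. Deviations of pools with the same number correlated at 0.000759, 0.106 and -0.0132, so the numbers were not taken to pair the pools.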
